A study of Homo sapiens with 24 samples.

Results

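The 40 genes described here are transcription factors that set the squamous fate of an epithelial cell and products of its terminal differentiation, the program that ends in cornification. They were chosen by gene symbol, and every transcript with an annotation to one of the symbols was summed. The list holds 11 transcription factors, 8 components or cross-linkers of the cornified envelope and 6 calcium-binding S100 proteins. It also holds 6 serpins and cystatins (families of protease inhibitors), 5 kallikreins and 4 other differentiation products, among 34834 genes with a transcript. Of the 40 genes, 22 reached 10 estimated counts in 3 or more libraries and could be tested, and 18 could not. The 22 passed a count filter and do not stand for the whole list, and some of the 18 were close to it, with KLK6, SERPINB4 and GRHL2 at 102.9, 102.1 and 79.8 counts over all libraries against 113.9 for SERPINB3, which was tested.

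The cells were SK-MES1, an established human line from a squamous cell carcinoma of the lung (LUSC). In all groups they were growth factor-depleted for 3 h, after which 1 arm received TGFβ1 at 2 ng/ml and the other was left untreated, and RNA was sequenced at 0, 8, 24 and 48 h. With 3 replicates for each arm and time point this gave 24 libraries in 8 groups. The study calls the replicates biological, and whether each was a culture of its own is not stated in the labels. The p-values measure the spread between these samples of 1 line. The libraries held from 46613589 to 77964234 estimated counts, with a median of 54120879. The library codes in the file names differ between the arms and between early (0 and 8 h) and late (24 and 48 h) libraries, so that code and treatment cannot be told apart at 8, 24 and 48 h, whereas the changes from 0 to 8 h and from 24 to 48 h lie within a code.

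In stratified epithelia, p63 from the TP63 gene keeps basal cells in the squamous lineage, and SOX2 acts beside it and is often amplified in LUSC. As cells leave the basal layer, KLF4, Grainyhead-like and ETS-family factors turn on involucrin, small proline-rich proteins and S100 proteins. Transglutaminase 1 cross-links these into the cornified envelope, while kallikreins and their inhibitors govern the shedding of the outermost cells. TGFβ is known to halt the growth of keratinocytes and to promote epithelial-to-mesenchymal transition in carcinoma cells.

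SK-MES1 cells transcribed 5 of the 11 transcription factors at 10 TPM or more in some library, while 3 of them and 6 of the 8 envelope genes stayed under 1 TPM in every library. Levels are given as TPM, kallisto's share of transcripts after correction for length, which allows genes to be compared. Of the 40 genes, 10 reached 10 TPM in some library and 21 stayed under 1 TPM in every library. Among the transcription factors TP63, KLF4, KLF5, EHF and ELF3 reached 10 TPM, SOX2, GRHL1 and GRHL3 had maxima of 8.17, 1.12 and 1.28 TPM, and GRHL2, OVOL1 and ZNF750 stayed under 1 TPM. Of the other members, S100A2, S100A16, CSTB, SERPINB5 and LYPD3 reached 10 TPM. S100A2 was the highest, between 485 and 2950 TPM, followed by S100A16 between 203 and 446 TPM and CSTB between 67.2 and 110 TPM, and these ranges do not overlap. The plot of the levels of all 40 genes shows this span.

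**Figure D1:**
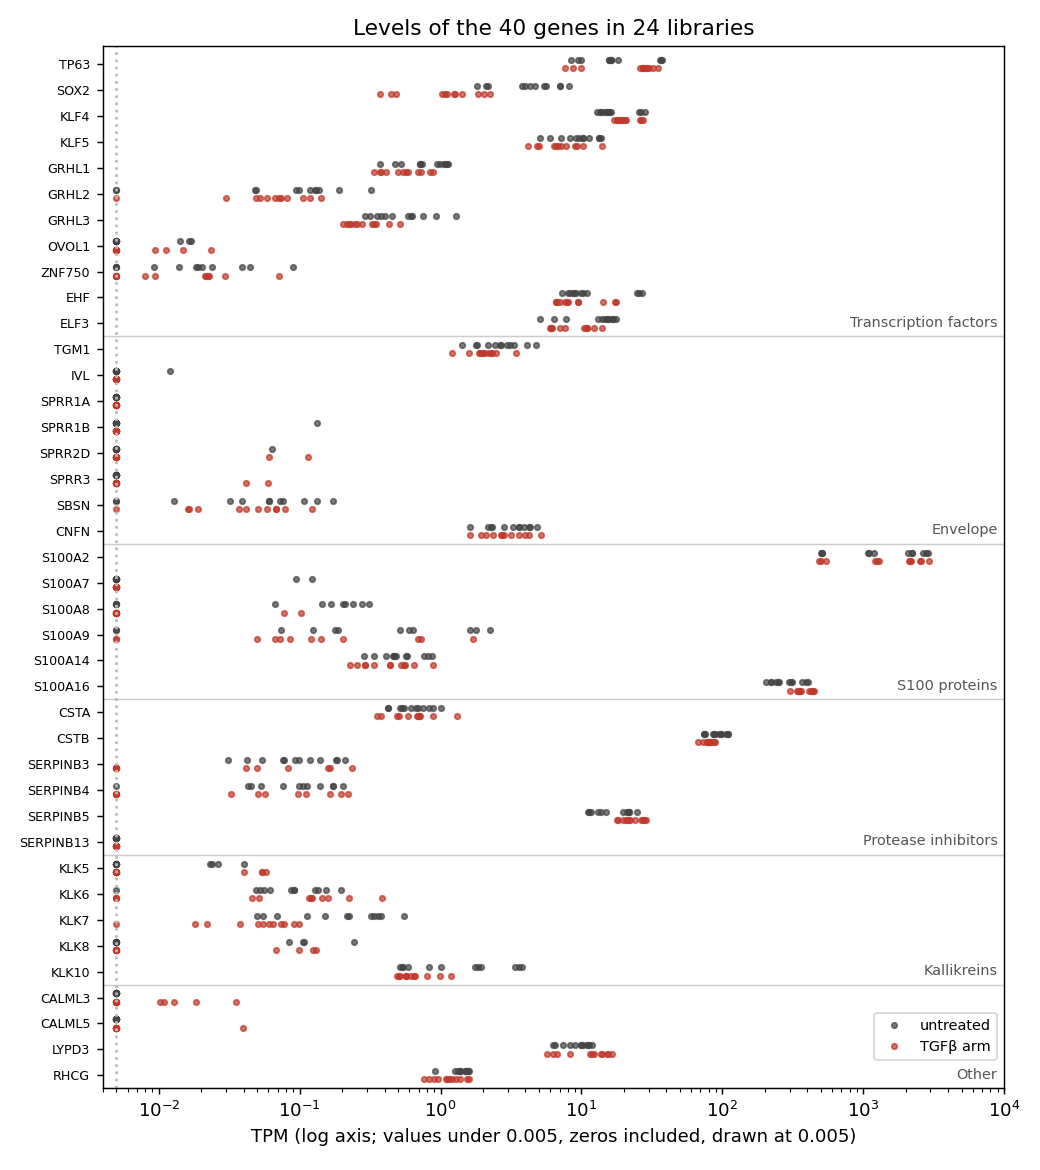
Level of each of the 40 genes in each of the 24 libraries, in TPM on a log axis, with untreated libraries in grey and those of the TGFβ arm in red, grouped by role. Values under 0.005 TPM, zeros included, are drawn at the dotted line. S100A2 lies between 485 and 2950 TPM, while IVL and the SPRR genes lie at or near the line.

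The 18 genes that could not be tested include the defining products of the cornified envelope. IVL, which encodes involucrin, had 1 estimated count over all 24 libraries, in an untreated library with 0.012 TPM, and 0 in the other libraries. SPRR1A and the protease inhibitor SERPINB13 had 0 counts in every library. A count of 0 allows up to 3 counts in a library, that is from 0.0385 to 0.0644 CPM (counts scaled to the library total) at these depths, which covers counting error only. Over all libraries together, the small proline-rich protein genes SPRR1B, SPRR2D and SPRR3 had 2, 4 and 2 counts, SBSN had 49, S100A7 had 2 and S100A8 had 22. Among the transcription factors OVOL1 had 8 counts, ZNF750 had 36.2 and GRHL2 had 79.8. Of the kallikreins, serine proteases that cleave the junctions between corneocytes, KLK5 had 10, KLK6 had 102.9 and KLK8 had 7.9 counts. SERPINB4 had 102.1 counts, and the calmodulin-like genes CALML3 and CALML5 had 8 and 1. S100A8 counts were 3, 3 and 2 at 24 h and 4, 2 and 3 at 48 h in untreated libraries and at most 1 in any library of the TGFβ arm. The arms did not overlap at these times, and the counts were too low for the gene to be tested.

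Other squamous markers gave a divided picture. Keratins 5, 6A, 6B and 14 and desmoglein 3, the defining proteins of basal and activated squamous cells, stayed at or under 0.102 TPM in every library. TP63, plakophilin 1 (PKP1, a desmosomal plaque protein, 15.6 to 58.5 TPM) and keratin 17 (KRT17, 0.29 to 71.4 TPM) were transcribed, with DSC3 and TRIM29 at or under 1.55 and 1.14 TPM. The 7 markers of lung adenocarcinoma were low, with NKX2-1, the highest, at or under 1.15 TPM and SFTA2 at 0 in all libraries. The leukocyte marker CD3E was at 0, although CD68, which many carcinoma lines transcribe, ranged from 7.64 to 40.2 TPM and PTPRC from 1.26 to 2.1 TPM. The endothelial marker CDH5 was at or under 0.151 TPM, and PECAM1 lay between 0.582 and 4.14 TPM. Of the markers of other cell types, NKX2-1, LYZ and PTPRC were lower and PECAM1 and VWF higher in the TGFβ arm (averages of -1.67, -0.80, -0.33, 0.26 and 0.58 on the log2 scale, limma adjusted p from 3.5e-09 to 0.0074), and their part in the results was not tested. On length-scaled counts PTPRC, PECAM1 and VWF did not pass. Of the squamous markers TP63, PKP1 and KRT17 were thus transcribed, while the basal keratins stayed at or under 0.102 TPM. As given below, TP63 reads were assigned mostly to its upstream start, and KRT17 was highest in TGFβ-treated cells at 48 h.

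The members lie in part in gene clusters. The IVL, SPRR and S100 members, 11 in all, share 708 kb on chromosome 1 (chr1:152908546-153616986, GRCh38), the epidermal differentiation complex, and only S100A2, S100A9, S100A14 and S100A16 of them could be tested. The 5 kallikreins share 77 kb on chromosome 19 (chr19:50943303-51020175), with KLK7 and KLK10 tested, and the 4 SERPINB genes share 185 kb on chromosome 18 (chr18:63476958-63661893), with SERPINB3 and SERPINB5 tested. At the low-coordinate end of the first cluster IVL was all but silent, and near its other end S100A2 was the most abundant member. The RefSeq promoter windows of this pair (GRCh38, 250 bases before to 50 after the start) are shown because both hold the AP-1 motif TGANTCA, searched on both strands. Capitals mark AP-1, the ETS-type letters AGGAAG or CTTCCT and, in IVL, the TATA box TATAAA. The IVL window is chr1:152908296-152908595 on the plus strand, and that of S100A2, a start among several, is chr1:153565795-153566094 on the minus strand.
IVL: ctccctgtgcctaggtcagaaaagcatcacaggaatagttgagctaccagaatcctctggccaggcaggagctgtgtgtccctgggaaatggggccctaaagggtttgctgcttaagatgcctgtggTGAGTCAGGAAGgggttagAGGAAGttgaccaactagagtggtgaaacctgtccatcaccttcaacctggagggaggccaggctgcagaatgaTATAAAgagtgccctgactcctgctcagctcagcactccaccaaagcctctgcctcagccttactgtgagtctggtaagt
S100A2: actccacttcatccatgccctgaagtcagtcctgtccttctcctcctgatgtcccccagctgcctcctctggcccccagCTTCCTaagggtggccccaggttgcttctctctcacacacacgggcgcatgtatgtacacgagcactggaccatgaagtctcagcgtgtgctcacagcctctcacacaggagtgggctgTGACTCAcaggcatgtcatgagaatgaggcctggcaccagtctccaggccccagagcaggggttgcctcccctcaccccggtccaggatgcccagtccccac

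In IVL the AP-1 letters TGAGTCA stood 123 bases before the start and shared 1 base with an AGGAAG at 117 bases before it, and in S100A2 TGACTCA stood 52 bases before the start. The motif was present in 8 of 41 member promoters (19.5%), from 31 genes with a RefSeq entry, and in 7.7% of all 35116 promoters of the same length. Its genes were IVL, S100A2, SBSN, SERPINB5, SERPINB13, SPRR1A, SPRR1B and SPRR3, of which SERPINB5 and S100A2 were abundant and the others could not be tested. AGGAAG was in 53.7% of member promoters and 33.6% of all, and the Smad letters CAGACA were in 36.6% and 16.9%. GGGTGTGG, a KLF motif, was in 0 of 41 member promoters, against 3.3% of all. Member promoters were poor in CpG, with a median ratio of observed to expected CpG of 0.29 against 0.58 for all promoters. The ratio was 0.39 in the promoters of tested members and 0.15 in those of members that could not be tested. These are descriptions of letters, and promoters of clustered paralogs share sequence. Some genes, such as S100A8, KLK7 and KLK10, also have overlapping windows, so that a motif can count more than once.

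The arms were compared over 8, 24 and 48 h with limma voom and a moderated F-test, with Benjamini-Hochberg adjusted p below 0.01 as the threshold. Differences are on the log2 scale, TGFβ arm minus untreated. Of the 22 tested genes, 15 passed, 5 with a higher and 10 with a lower average in the TGFβ arm, where 42.6% of all 17413 tested genes passed (21% higher, 21.6% lower). Their median difference was -0.24 against -0.02 for all genes. TP63, KLF4, S100A16, SERPINB5 and LYPD3 were higher and SOX2, KLF5, GRHL1, GRHL3, EHF, ELF3, CSTB, SERPINB3, KLK7 and KLK10 were lower. None of the 5 was 2-fold higher on average, against 3.02% of all genes. At least 2-fold lower were 4 members, SOX2, SERPINB3, KLK7 and KLK10, against 2.58% of all genes. SERPINB3 and KLK7 reached 10 counts in no TGFβ-treated library after 0 h. They passed the count filter through other libraries, where they were higher, so their part in this count is not free of the filter. When libraries were scaled to 4 reference genes in place of TMM factors, the median of all genes moved to 0.245. Of the members 12 then passed, 6 higher and 6 lower, against 11185 of all 17413 genes, 9804 higher and 1381 lower. The averages of KLF5, EHF and CSTB turned to 0.02, 0.03 and 0.07. In bulk RNA, fewer cells of a type and less RNA per cell cannot be told apart.

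At 0 h no member passed, and 0 of 17413 genes did (0%), while 0 members and 800 genes had an unadjusted p below 0.05 by limma. At 8 h 7 members passed (5 higher, 2 lower), against 16.4% of all genes (9.14% higher, 7.28% lower). At 24 h 12 passed (4 higher, 8 lower), against 29.4% of all (15.5% higher, 13.9% lower), and with reference genes 6 were higher and 3 lower. At 48 h 14 passed (4 higher, 10 lower), against 32.7% of all (16.2% higher, 16.5% lower), and with reference genes 6 were higher and 6 lower. Reference genes moved the median of all genes to 0.335 at 24 h and 0.336 at 48 h. How many of all genes passed at these times in that setting was not counted. The share of members that passed was 31.8, 54.5 and 63.6% at the 3 time points. When only the libraries of 24 h entered the fit, 20 members could be tested and 7 passed at 24 h (4 higher, 3 lower). How many of all genes passed at 24 h in that fit was not counted.

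**Figure D2:**
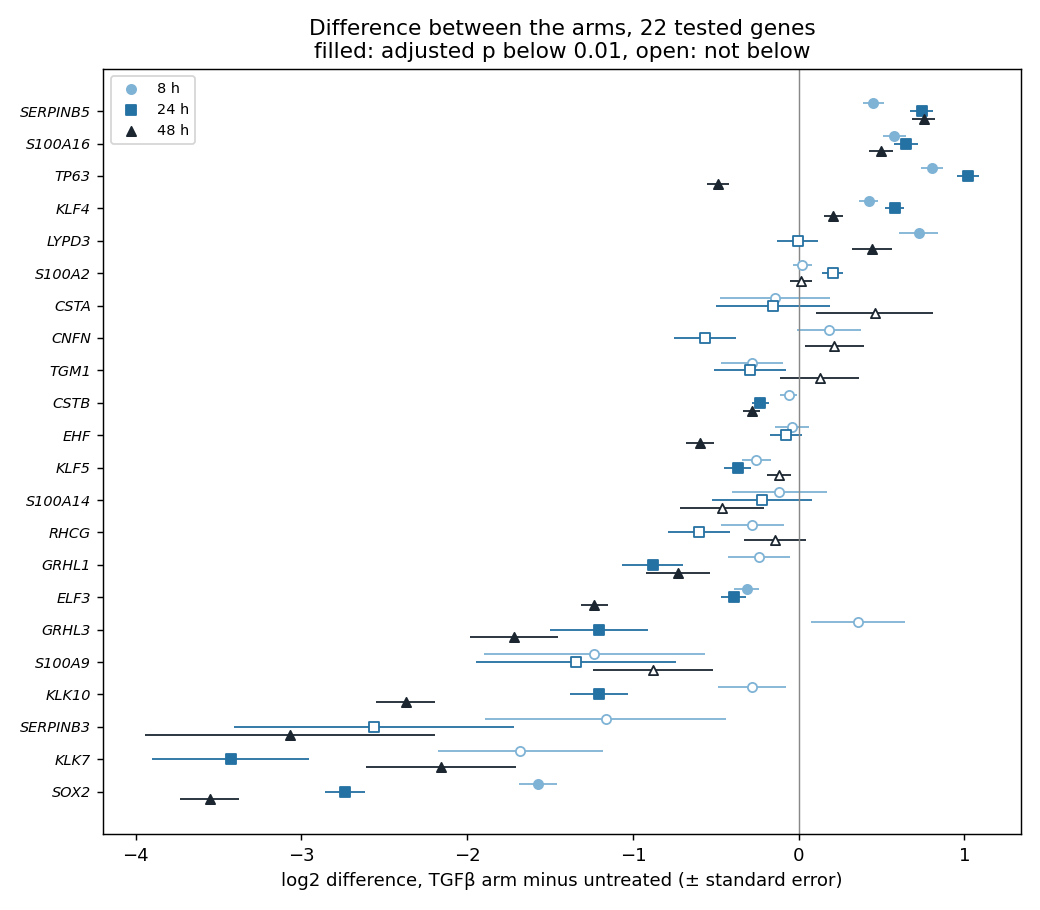
Difference between the arms on the log2 scale (horizontal axis, TGFβ arm minus untreated) with its standard error for the 22 tested genes at 8, 24 and 48 h, filled where the adjusted p was below 0.01. SOX2 lies at -1.57, -2.74 and -3.55 at the 3 time points, and TP63 lies at 0.81 and 1.02 and then at -0.49.

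TP63, on chromosome 3 (chr3:189631389-189897276, plus strand), rose in both arms but on different schedules. At 0 h it was at 8.49, 9.99 and 9.38 TPM in untreated libraries and at 7.69, 9.86 and 8.67 TPM in the TGFβ arm, and these overlap. At 8 h it was at 18.2, 15.8 and 16.1 TPM untreated and at 27.4, 28.7 and 30.3 TPM with TGFβ. At 24 h untreated libraries stayed at 15.7, 16.2 and 16.1 TPM and TGFβ-treated ones at 29.4, 34.7 and 32 TPM. TGFβ-treated cells were thus above untreated cells at both times, with no overlap. At 48 h the order was the opposite, with 36, 37.5 and 36.9 TPM in untreated and 26.1, 27.2 and 27.2 TPM in TGFβ-treated cells.

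The difference in TP63 was 0.81 at 8 h (SE 0.066, limma adjusted p = 5.2e-09), 1.02 at 24 h (SE 0.067, adjusted p = 6.3e-11) and -0.49 at 48 h (SE 0.065, adjusted p = 2.6e-06). With reference genes the last value was -0.14 (adjusted p = 0.19). Within a library code, TP63 rose from 0 to 8 h by 0.84 in untreated and by 1.63 in TGFβ-treated cells, and the difference of these changes was 0.79 (SE 0.10, adjusted p = 7.5e-06). From 24 to 48 h it rose by 1.18 in untreated cells (adjusted p = 9.2e-12) and changed by -0.32 in TGFβ-treated cells (0.07 with reference genes), a difference of -1.51 (SE 0.093, adjusted p = 8.8e-10). Relative to 0 h the mean level had reached 3.96-fold in untreated and 3.07-fold in TGFβ-treated cells at 48 h.

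TP63 has an upstream promoter, which gives the TAp63 proteins with a full transactivation domain, and an internal promoter, which gives the ΔNp63 proteins that prevail in basal cells of squamous epithelium. The annotation holds 6 transcripts from the upstream start (189631389 to 189631516) and 8 from the internal start (189789659 to 189789801). The windows around both starts are shown because the libraries assign their reads almost wholly to the upstream group. The upstream window comes from the RefSeq promoter table (chr3:189631139-189631438, plus strand, GRCh38), and the internal one was read from the GRCh38 genome around the first base of its most downstream start (chr3:189789551-189789850, plus strand). Capitals mark the Smad letters CAGACA and the TATA letters TATAAA on either strand and the SOX letters AACAAT.
TP63 upstream start: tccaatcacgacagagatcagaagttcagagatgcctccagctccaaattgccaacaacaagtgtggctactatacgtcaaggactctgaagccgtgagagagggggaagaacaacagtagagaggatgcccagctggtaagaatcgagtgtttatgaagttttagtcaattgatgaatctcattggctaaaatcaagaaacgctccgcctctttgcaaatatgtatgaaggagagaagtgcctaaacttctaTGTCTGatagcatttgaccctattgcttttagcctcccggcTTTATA
TP63 internal start: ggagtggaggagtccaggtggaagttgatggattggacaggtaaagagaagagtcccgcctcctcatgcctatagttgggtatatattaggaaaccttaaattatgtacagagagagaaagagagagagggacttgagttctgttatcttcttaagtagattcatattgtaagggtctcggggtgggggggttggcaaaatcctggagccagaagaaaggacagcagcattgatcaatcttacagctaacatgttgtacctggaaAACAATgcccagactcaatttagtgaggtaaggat

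In the upstream window TGTCTG, the reverse complement of CAGACA, began at position 4, with the start base as position 1, and TTTATA at position 45. In the internal window AACAAT began at position 16. TATAAA was in 26.8% of member promoters against 11.5% of all, and AACAAT in 4.9% against 10.1%.

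Upstream transcripts made up between 88.7 and 96.7% of the TP63 TPM as group means, and between 95 and 98.9% of its estimated counts. In untreated cells they went from 8.49 ± 0.184 TPM (0 h) over 15.2 ± 0.508 (8 h) and 14.2 ± 0.572 (24 h) to 35.6 ± 0.423 (48 h; mean ± SD, n = 3). In the TGFβ arm they were at 7.72 ± 0.641, 26.8 ± 2.56, 29.1 ± 1.99 and 23.9 ± 2.41 TPM. The internal transcripts together were between 0.801 and 2.95 TPM as group means, and their libraries scattered, for example 0.136, 1.59 and 0.681 TPM in untreated cells at 0 h. The time course of the whole gene was therefore that of the upstream transcripts. TP63-201, the longest upstream transcript, carried 65.3% of the TPM, whereas TP63-203, the matching transcript of the internal start, had 3.5 counts over all libraries. A retained-intron transcript that begins at the upstream start and ends at 189738896, before the internal start, was at 1.36 ± 0.622 TPM in untreated cells at 0 h and at 4.53 ± 0.698 TPM at 48 h. The groups share most exons, so kallisto divides shared reads by a model and the smaller group is the less certain.

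**Figure D3:**
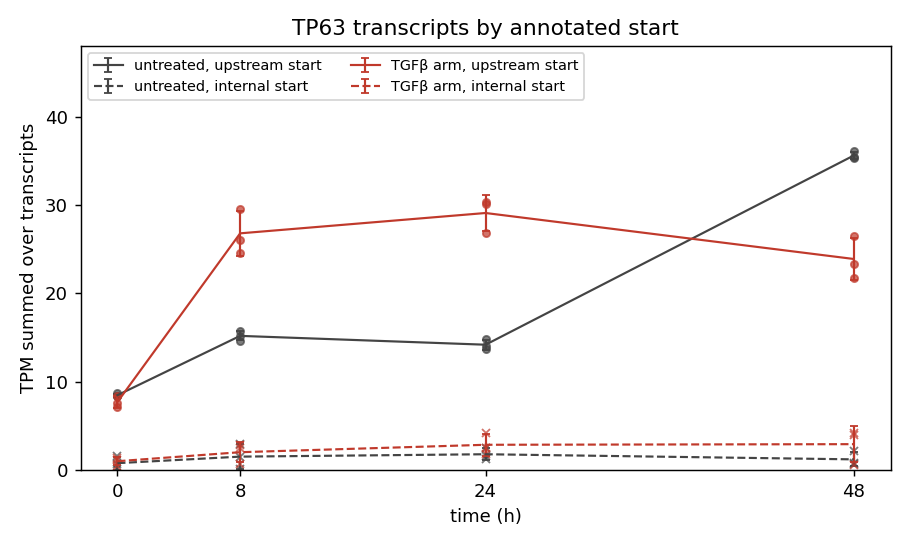
TPM summed over TP63 transcripts with the upstream start (solid lines) and the internal start (dashed lines) over time in untreated (grey) and TGFβ-arm (red) libraries. Points are libraries, and lines with bars are means ± SD (n = 3); the internal group means stay between 0.801 and 2.95 TPM while the upstream means reach 35.6 TPM in untreated cells at 48 h.

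SOX2, the lineage factor on chromosome 3 (chr3:181711925-181714436), showed the largest average difference of the transcription factors and went in opposite directions in the arms. At 0 h it was at 2.16, 1.82 and 2.1 TPM untreated and at 2.25, 1.83 and 2.02 TPM in the TGFβ arm. Untreated libraries were at 3.97, 3.81 and 4.33 TPM at 8 h, at 7.07, 8.17 and 7 TPM at 24 h and at 4.68, 5.56 and 5.45 TPM at 48 h. TGFβ-treated libraries were at 1.41, 1.24 and 1.27 TPM at 8 h, at 1.07, 1.03 and 1.11 TPM at 24 h and at 0.482, 0.372 and 0.441 TPM at 48 h. SOX2 thus rose in untreated cells and fell in TGFβ-treated cells, and the arms did not overlap after 0 h. The average difference was -2.62 (SE 0.081, adjusted p = 8.2e-16), and it was lower in all 9 TGFβ-treated libraries than in any untreated library of the same time. The change from 0 to 8 h was 0.95 in untreated and -0.65 in TGFβ-treated cells, a difference of -1.60 (SE 0.17, adjusted p = 4.3e-07). From 24 to 48 h SOX2 fell in both arms, by 0.56 untreated (-0.16 with reference genes, adjusted p = 0.089) and by 1.37 with TGFβ, and that difference of -0.81 missed the threshold (adjusted p = 0.012). Leaving out TGFβ-arm replicate 1 or 2 at 0 h, untreated replicate 2 at 24 h or untreated replicate 1 at 48 h brought it to adjusted p = 0.0086, 0.0099, 0.0076 and 0.0042. TP63 and SOX2 lie on the same chromosome arm, and at 8 and 24 h TP63 was higher and SOX2 lower in TGFβ-treated cells.

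KLF4, a Krüppel-like factor of differentiating cells, fell after 0 h in both arms and fell less with TGFβ. It was at 28.2, 26.6 and 25.8 TPM in untreated and at 26.2, 26.4 and 27.3 TPM in TGFβ-arm libraries at 0 h. At 8 h it was at 14.2, 14.9 and 15.6 against 20.3, 18.6 and 19 TPM, at 24 h at 13.6, 12.8 and 13.7 against 20.7, 19.4 and 19.4 TPM, and at 48 h at 15.7, 16.1 and 15.1 against 17.8, 18 and 17 TPM. TGFβ-treated cells were above untreated cells at each time after 0 h, with no overlap. The difference was 0.42 at 8 h (SE 0.055, adjusted p = 5e-06) and 0.58 at 24 h (SE 0.057, adjusted p = 3.9e-08), and the change from 0 to 8 h differed by 0.45 (SE 0.077, adjusted p = 0.00028). At 48 h the difference was 0.21 (adjusted p = 0.0051), and it did not pass without TGFβ replicate 1 or 2 or untreated replicate 1 or 3 of that time (0.19, 0.20, 0.21 and 0.19, adjusted p = 0.026, 0.024, 0.018 and 0.029) or on library totals (0.13, adjusted p = 0.062).

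KLF5, which is linked to proliferating basal cells, dipped at 8 h in both arms and recovered. Untreated libraries held 11.3, 8.3 and 13.7 TPM at 0 h and 7.15, 5.09 and 6 TPM at 8 h, and later 9.1, 10.2 and 9.57 TPM (24 h) and 10.3, 13.4 and 13.3 TPM (48 h). Those of the TGFβ arm held 7.75, 8.94 and 7.2 TPM at 0 h and 4.97, 4.17 and 4.8 TPM at 8 h, then 6.57, 6.37 and 6.82 TPM (24 h) and 14.1, 10.2 and 9.36 TPM (48 h). The arms overlapped at 0 and 48 h. The average difference of -0.25 passed (SE 0.046, adjusted p = 0.00055), but it was 0.02 with reference genes, and it did not pass on log2(TPM + 1), log2(TPM + 0.1) or length-scaled counts (adjusted p = 0.022, 0.018 and 0.049).

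The Grainyhead-like factors GRHL1 and GRHL3, which drive barrier formation, were low and lower with TGFβ. GRHL1 averaged -0.62 (SE 0.11, adjusted p = 0.00025), with means of 0.906 ± 0.175 against 0.455 ± 0.113 TPM at 24 h. It did not pass on either log2(TPM) scale, on length-scaled counts or with reference genes (adjusted p from 0.012 to 0.037). GRHL1 at 48 h was -0.73 and was lost without untreated replicate 1 or TGFβ replicate 1 or 3 of that time (-0.52, -0.73 and -0.67, adjusted p = 0.035, 0.016 and 0.021). GRHL3 rose from 24 to 48 h in untreated cells by 0.89 (adjusted p = 0.0024), to 1.28, 0.921 and 0.584 TPM, whereas TGFβ-treated libraries were at 0.275, 0.256 and 0.215 TPM, below all of these. That rise of GRHL3 was lost without untreated replicate 1 of 24 h or untreated replicate 1 or 2 of 48 h (0.67, 0.74 and 0.80, adjusted p = 0.03, 0.019 and 0.012), on both TPM scales and on length-scaled counts (adjusted p from 0.038 to 0.081). Its difference was 0.36 at 8 h (adjusted p = 0.42), -1.21 at 24 h (adjusted p = 0.0026) and -1.72 at 48 h (SE 0.27, adjusted p = 1.7e-05). The GRHL3 call at 24 h was lost without untreated replicate 3 (-1.10, adjusted p = 0.013) or TGFβ replicate 2 (-1.14, adjusted p = 0.012). Among tested members, GRHL1, GRHL3 and EHF had at 0 h a higher TPM in every untreated library than in the TGFβ arm. The means were 1.1 against 0.817, 0.492 against 0.304 and 8.94 against 7.38 TPM. Their estimated counts at 0 h overlapped between the arms, the fitted differences were -0.18, -0.22 and -0.04, and none passed the test. How many of all genes were apart in TPM at 0 h was not counted.

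The ETS-family factors EHF and ELF3, which act in epithelial differentiation, rose more in untreated cells. EHF changed little until 24 h and then rose to 25, 26.9 and 25.5 TPM untreated and to 17.7, 17.2 and 14.3 TPM with TGFβ at 48 h, by 1.29 and 0.77 (adjusted p = 2e-10 and 1.1e-06). The EHF difference at 48 h was -0.60 (SE 0.084, adjusted p = 5.7e-06), and -0.25 (adjusted p = 0.044) with reference genes. ELF3 was at 7.81, 5.11 and 6.43 TPM in untreated and at 6.04, 6.08 and 6.03 TPM in TGFβ-arm libraries at 0 h and rose in both by 8 h. At 48 h untreated cells held 17.5, 16.7 and 16.7 TPM, while TGFβ-treated cells had dropped back to 7.69, 6.15 and 7.1 TPM. The ELF3 difference was -1.23 at 48 h (SE 0.083, adjusted p = 8.3e-11), and its change from 24 to 48 h differed by -0.84 between the arms (SE 0.11, adjusted p = 2e-05). At 8 h ELF3 was at -0.31 (adjusted p = 0.0031), a call lost without untreated replicate 1 or 2 or TGFβ replicate 1 or 2 of that time (adjusted p = 0.023, 0.011, 0.029 and 0.013) and on the TPM scales.

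**Figure D4:**
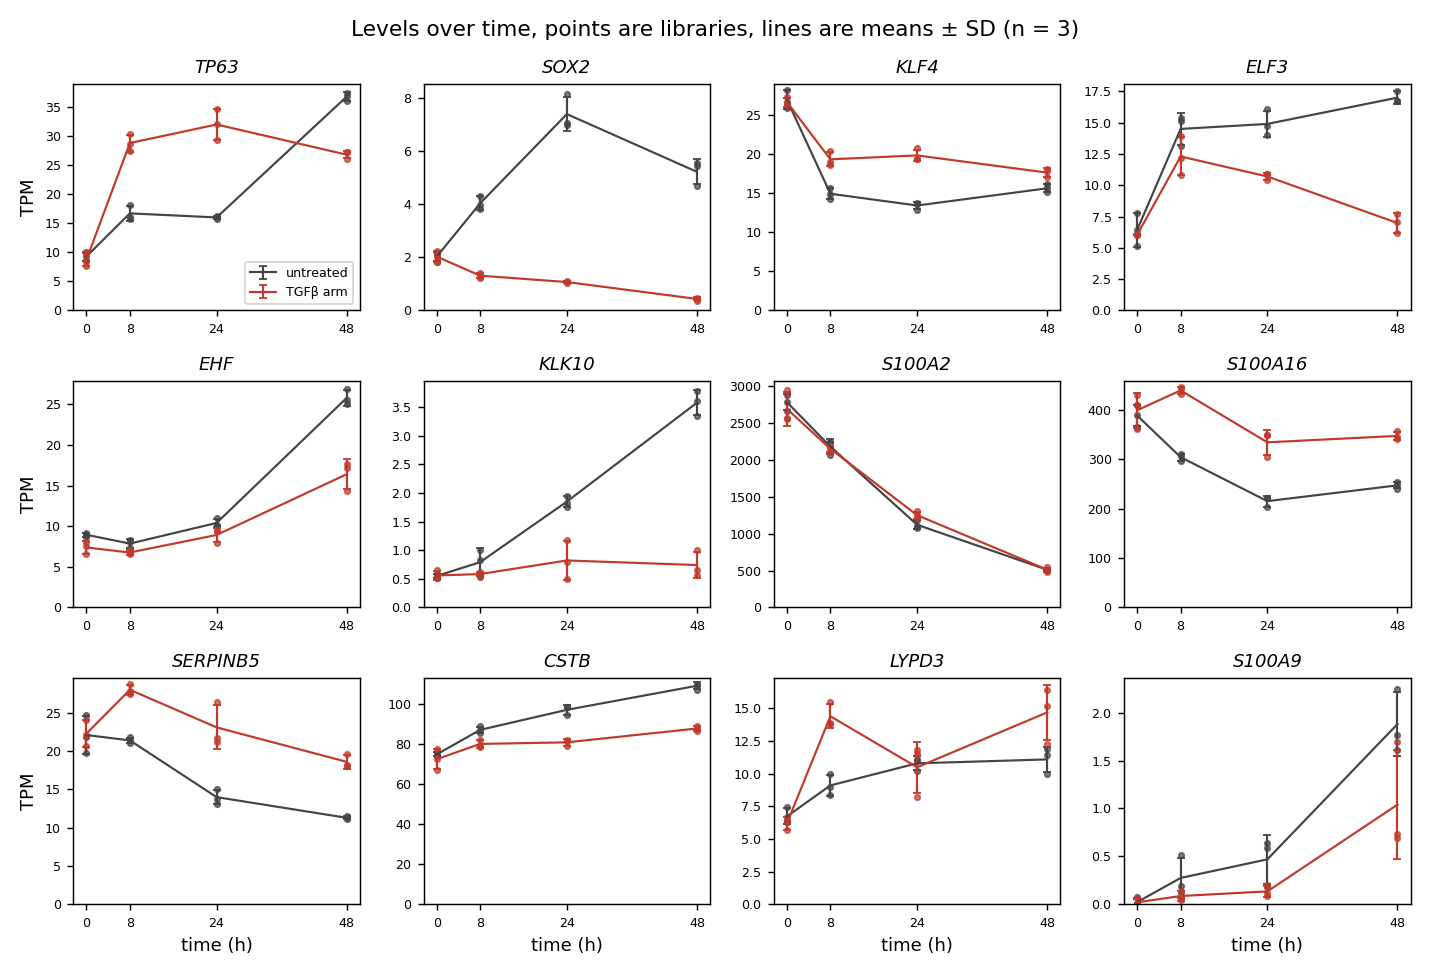
TPM over time for 12 of the tested genes in untreated (grey) and TGFβ-arm (red) libraries. Points are libraries, lines are means with SD (n = 3), and each vertical axis starts at 0. SOX2 and KLK10 part from 8 or 24 h on, TP63 changes order between 24 and 48 h, and S100A2 falls in both arms to means of 510 and 511 TPM at 48 h.

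The envelope genes gave no call. TGM1, the transglutaminase, ranged from 1.2 to 4.79 TPM over all libraries, and its average difference was -0.15 (SE 0.12, adjusted p = 0.33), with 0.12 under reference genes. CNFN, which encodes cornifelin, ranged from 1.61 to 5.17 TPM and averaged -0.06 (SE 0.11, adjusted p = 0.049). CNFN at 24 h was at 4.29, 3.59 and 4.8 TPM untreated and 2.83, 2.35 and 3.17 TPM with TGFβ, a difference of -0.56 (adjusted p = 0.021). Without untreated replicate 2 it was -0.67 (adjusted p = 0.0095).

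Among the S100 genes the most abundant member fell in both arms. S100A2 was at 2790, 2660 and 2880 TPM untreated and at 2950, 2550 and 2570 TPM in the TGFβ arm at 0 h, and by 48 h it had fallen to 506, 513 and 511 TPM and to 485, 506 and 541 TPM. The mean level at 48 h was 0.184 of that at 0 h in untreated cells and 0.19 in the TGFβ arm. From 24 to 48 h it fell by 1.13 and by 1.32 (adjusted p = 9.9e-12 and 1.8e-12). The average difference between the arms was 0.08 (SE 0.036, adjusted p = 0.05), -0.01 on library totals and 0.35 with reference genes (adjusted p = 3e-08). Without TGFβ-arm replicate 1 at 0 h it was 0.08 (adjusted p = 0.0048). S100A2 at 24 h was at 1190, 1100 and 1080 TPM untreated and 1300, 1250 and 1210 TPM with TGFβ, with no overlap. That difference of 0.20 missed the threshold (SE 0.062, adjusted p = 0.011) and passed by edgeR, by DESeq2 and with the replicate number as a block (adjusted p = 0.0098, 0.0041 and 0.0067), with reference genes (0.56, adjusted p = 5.4e-08), and without any TGFβ-arm replicate of 0 h or untreated replicate 1 of 24 h (adjusted p from 0.00086 to 0.0095). S100A16 fell in untreated cells, from 409, 366 and 390 TPM at 0 h to 248, 253 and 240 TPM at 48 h, and less in the TGFβ arm, from 429, 360 and 410 to 356, 344 and 341 TPM. Its differences of 0.58 (8 h), 0.65 (24 h) and 0.50 (48 h) passed at each time (average 0.57, SE 0.041, adjusted p = 2.1e-09), and the change from 0 to 8 h differed by 0.51 (adjusted p = 0.00096).

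S100A9, a subunit of calprotectin, rose late in both arms from near 0. Its counts were 0, 0 and 1 in both arms at 0 h, and 26, 22 and 33 in untreated and 22, 9 and 8 in TGFβ-treated cells at 48 h. Only 4 libraries, all of them at 48 h, held 10 or more. S100A9 thus passed the count filter through the time where it was high, and its rise to 48 h is not free of that filter. The rise from 24 to 48 h was 2.07 untreated and 2.53 with TGFβ (adjusted p = 0.00045 and 0.0013). The difference between the arms averaged -1.15 (SE 0.32, adjusted p = 0.024), and passed without untreated replicate 1 at 24 h (-1.35, adjusted p = 0.004) or TGFβ replicate 1 at 48 h (-1.29, adjusted p = 0.0084). S100A14 stayed between 0.227 and 0.886 TPM, and its difference of -0.27 did not pass (SE 0.16, adjusted p = 0.36).

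Of the serpins and cystatins, SERPINB5 (maspin) was higher and CSTB (cystatin B) lower in TGFβ-treated cells. SERPINB5 was at 21, 21.4 and 21.8 TPM untreated and 28.7, 27.4 and 27.8 TPM with TGFβ at 8 h, and at 11.3, 11.1 and 11.6 against 18.2, 18 and 19.6 TPM at 48 h. The arms did not overlap after 0 h, and the average difference was 0.65 (SE 0.039, adjusted p = 9.3e-11). The change of SERPINB5 from 0 to 8 h differed by 0.40 (adjusted p = 0.0048), which was lost without TGFβ-arm replicate 1 or 3 or untreated replicate 2 or 3 of 0 h and without replicate 1 or 2 of either arm at 8 h (0.34 to 0.41, adjusted p = 0.01 to 0.017). CSTB rose from 75.9, 73.9 and 74.4 to 109, 107 and 110 TPM untreated between 0 and 48 h and from 77.4, 67.2 and 72.6 to 89, 86.6 and 87.5 TPM in the TGFβ arm. Its average difference was -0.19 (SE 0.030, adjusted p = 4.1e-05), and 0.07 (adjusted p = 0.021) with reference genes. CSTA (cystatin A) was between 0.355 and 1.31 TPM with a difference of 0.05 (SE 0.20, adjusted p = 0.63), whose sign changed between settings.

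SERPINB3, a squamous cell carcinoma antigen gene, lay near the limit of detection and was at 0 in the TGFβ arm at 48 h. Its estimated counts at 0 h were 10, 5.3 and 10 untreated and 13, 9 and 8.1 in the TGFβ arm. Untreated libraries held 5, 6 and 3 counts at 8 h, 12, 3.3 and 3.3 at 24 h and 2, 7 and 7 at 48 h, and TGFβ-treated ones held 0, 4 and 3.5, then 0, 0 and 2.4, and 0 in each at 48 h. At 48 h untreated cells held 16 counts over the group. With these taken as exact and 3 counts over the group as the limit for 0, the level was at least 4.7-fold lower with TGFβ. Counting error in the 16 and the spread between replicates are left out of this value. The fitted average difference was -2.27 (SE 0.47, adjusted p = 0.0029), and on log2(TPM + 1) it was -0.10 and did not pass (adjusted p = 0.04). The call at 48 h was lost without any TGFβ replicate of that time or without untreated replicate 2 or 3 (adjusted p from 0.023 to 0.028), and on log2(TPM + 0.1) and log2(TPM + 1) (-0.92 and -0.13, adjusted p = 0.014 and 0.06). The libraries in which SERPINB3 held 10 or more counts were untreated or at 0 h, so it passed the count filter through libraries where it was high. SERPINB3 held 10 or more counts in 4 libraries and SERPINB4, its near-identical neighbour, in 2, so kallisto may have divided reads between them. Counts of the pair together were 14, 13.3 and 21 untreated and 22, 14 and 17.9 in the TGFβ arm at 0 h, and 8.8, 14 and 17 against 1, 0 and 0 at 48 h.

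The tested kallikreins, KLK7 and KLK10, were lower with TGFβ by more than 2-fold on average. KLK6, which could not be tested, had mean counts of 6, 3.9 and 8.7 with TGFβ at 8, 24 and 48 h. Untreated cells had 2.8, 5.7 and 5 at these times. KLK10 was at 0.543, 0.519 and 0.588 TPM untreated and 0.519, 0.507 and 0.648 TPM in the TGFβ arm at 0 h, and at 0.826, 0.535 and 1.01 against 0.62, 0.564 and 0.566 TPM at 8 h. It then rose to 1.83, 1.76 and 1.94 TPM at 24 h and to 3.78, 3.35 and 3.61 TPM at 48 h in untreated cells, while TGFβ-treated libraries were at 1.18, 0.49 and 0.797 and at 0.659, 0.567 and 0.996 TPM. The arms overlapped at 0 and 8 h and not later. The KLK10 difference was -1.20 at 24 h (SE 0.18, adjusted p = 1e-05) and -2.37 at 48 h (SE 0.18, adjusted p = 4.5e-10). From 24 to 48 h KLK10 rose by 0.94 in untreated cells (adjusted p = 3.8e-06) and changed by -0.23 in TGFβ-treated cells (adjusted p = 0.44). These changes differed by -1.17 (SE 0.25, adjusted p = 0.0026), which was lost without TGFβ replicate 1 or 3 at 24 h or TGFβ replicate 1 or 2 at 48 h (-0.99, -1.06, -1.14 and -1.08, adjusted p = 0.013, 0.013, 0.01 and 0.012).

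KLK7 was scarce. Its counts were 3, 3.1 and 3 untreated and 3, 3 and 3 in the TGFβ arm at 0 h. Untreated libraries then held 6, 10 and 8 counts at 8 h, 23, 28 and 21 at 24 h and 15, 11.1 and 20 at 48 h, against 2, 1 and 3, then 3, 0 and 4, and 4, 3 and 1 in TGFβ-treated cells. The arms did not overlap after 0 h, and only 7 libraries, all of them untreated, held 10 or more counts. KLK7 thus passed the count filter through the arm where it was high. The KLK7 difference was -1.68 at 8 h (adjusted p = 0.017), -3.43 at 24 h (SE 0.47, adjusted p = 5.2e-06) and -2.16 at 48 h (SE 0.45, adjusted p = 0.00053), and at 8 h it passed without TGFβ replicate 2 of 24 h (adjusted p = 0.0036).

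LYPD3, a surface protein of suprabasal cells, was at 9.97, 8.34 and 9.02 TPM untreated and at 13.8, 15.5 and 13.9 TPM with TGFβ at 8 h. At 24 h LYPD3 was at 11.1, 10.2 and 11 against 11.5, 8.24 and 11.8 TPM, which overlap, and at 48 h it was at 11.9, 11.4 and 10 against 15.2, 16.4 and 12.3 TPM. The arms were apart at 8 and 48 h only, with differences of 0.72 (SE 0.12, adjusted p = 8.4e-05) and 0.44 (adjusted p = 0.0052), and the difference at 24 h was -0.01 (SE 0.12, adjusted p = 0.98). The LYPD3 call at 48 h was lost without TGFβ replicate 1 or 2 or untreated replicate 2 or 3 (0.40, 0.36, 0.46 and 0.38, adjusted p = 0.027, 0.039, 0.013 and 0.033). RHCG, an ammonium transporter of suprabasal cells, stayed between 0.759 and 1.6 TPM and averaged -0.34 (SE 0.11, adjusted p = 0.031). Without untreated replicate 3 at 8 h, RHCG averaged -0.41 (adjusted p = 0.0054).

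Changes within a library code were compared between the arms, since an offset between codes cancels in them. From 0 to 8 h they differed in 6 of the 22 members (5 higher, 1 lower with TGFβ), namely TP63, KLF4, S100A16, SERPINB5, LYPD3 and SOX2, against 7.91% of all genes (5.07% higher, 2.84% lower). LYPD3 differed by 0.80 (adjusted p = 0.0057), a call lost without TGFβ-arm replicate 2 or 3 or untreated replicate 3 of 0 h, or without TGFβ replicate 2 or untreated replicate 2 or 3 of 8 h (0.71 to 0.80, adjusted p = 0.013 to 0.025). From 24 to 48 h they differed in 5 members, TP63, KLF4, EHF, ELF3 and KLK10, each with the lower change in TGFβ-treated cells, against 9.14% of all genes (3.51% higher, 5.63% lower). EHF differed by -0.52 (adjusted p = 0.0076), and this was lost without TGFβ replicate 2 or 3 or untreated replicate 1 or 2 of 24 h, any TGFβ replicate or untreated replicate 2 or 3 of 48 h, or any library of 8 h but untreated replicate 2 (-0.43 to -0.55, adjusted p = 0.01 to 0.032). KLF4 differed by -0.37 (adjusted p = 0.0031), lost without untreated replicate 2 or TGFβ replicate 3 of 48 h (-0.34 and -0.34, adjusted p = 0.011) and on protein-coding transcripts only (-0.36, adjusted p = 0.019). Among other settings EHF was also lost on both TPM scales, library totals, length-scaled counts, reference genes, without a count filter and with only the libraries of those times (adjusted p from 0.01 to 0.032), and KLK10 on log2(TPM + 0.1), length-scaled counts and only those libraries (adjusted p from 0.017 to 0.05). From 0 to 8 h SERPINB5 was lost on both TPM scales, library totals, length-scaled counts and only those libraries (adjusted p from 0.012 to 0.058), and LYPD3 without a count filter (adjusted p = 0.01).

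Untreated cells also changed with time. From 0 to 8 h 8 members passed (3 higher, 5 lower) against 26% of all genes (13.2% higher, 12.7% lower), with TP63, SOX2 and ELF3 rising and KLF4, KLF5, GRHL1, S100A2 and S100A16 falling. The fall of GRHL1 (-0.70, adjusted p = 0.0029) was lost without untreated replicate 1 or 2 of 0 h or untreated replicate 2 or 3 of 8 h (-0.64, -0.66, -0.64 and -0.71, adjusted p = 0.015, 0.013, 0.016 and 0.01). From 24 to 48 h 10 passed (7 higher, 3 lower) against 28.5% of all (14.8% higher, 13.7% lower). TP63, KLF5, GRHL3, EHF, S100A9, S100A14 and KLK10 rose, and SOX2, S100A2 and SERPINB5 fell, the last by 0.36 (0.04 higher with reference genes). S100A9 rose here and in the TGFβ arm but had passed the count filter only through libraries of 48 h. The rise of GRHL3 was lost as given above. KLF5 did not pass on either TPM scale or on length-scaled counts (adjusted p from 0.12 to 0.16). The rise of S100A14 (0.89, adjusted p = 0.0097) lay at the threshold. It was lost by edgeR (adjusted p = 0.016) and DESeq2 (adjusted p = 0.033), and without any library of 8 h, any of 48 h, untreated replicate 3 of 0 h, untreated replicate 2 or 3 of 24 h or TGFβ replicate 2 of 24 h (0.76 to 0.91, adjusted p from 0.01 to 0.053). In the TGFβ arm 10 members passed from 0 to 8 h (4 higher, 6 lower) against 33.9% of all genes (17.6% higher, 16.3% lower), and 10 from 24 to 48 h (4 higher, 6 lower) against 25.8% of all (12.4% higher, 13.4% lower). Both arms were growth factor-depleted before 0 h, and the part of that step in the changes of untreated cells was not tested.

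Other genes of the same pathways were drawn from a list of 86, of which 54 could be tested, and 22 passed the F-test (12 higher, 10 lower) with a median of -0.04. Of the 54, 40.7% passed, near the 42.6% of all tested genes. Of 16 further squamous transcription factors, 12 were tested and 6 passed. HOPX, FOXE1 and PRDM1 were higher (averages of 0.19, 0.57 and 0.50), HOPX with -0.67 at 24 h and 1.49 at 48 h, and TFAP2A and TFAP2C, the AP-2 factors of surface ectoderm, were lower (-0.91 and -0.77). Of 27 further envelope genes 12 were tested, CST6 and ECM1 were higher (2.83 and 0.15) and PPL was lower. PPL encodes periplakin, which links the envelope to keratin filaments, and rose from 22.4, 20.7 and 22.9 TPM at 0 h to 62.6, 59.3 and 60.3 TPM at 8 h in untreated cells, while TGFβ-treated cells held 22.2, 22.3 and 22.7 TPM. Its average difference was -1.31 (adjusted p = 6.8e-15).

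Of 12 further S100 genes 9 were tested. S100A10 and S100A11 were higher (0.49 and 0.40), and S100A6, S100A4 and S100P lower (-0.43, -0.55 and -0.30). Of 20 further inhibitors and proteases 12 were tested. SERPINB7, ST14 (matriptase) and SERPINB8 were higher (1.96, 0.65 and 0.26), and SERPINB1 and SERPINB2 lower (-0.53 and -0.82). SERPINB7 fell in both arms and more in untreated cells, from 2.43 ± 0.549 to 0.219 ± 0.0269 TPM between 0 and 48 h against 2.55 ± 0.654 to 1.3 ± 0.284 TPM. Of 11 barrier-lipid genes 9 were tested, and among those that passed were SULT2B1, which was higher (0.90), and ALOX12B, which was lower (-1.08). PRDM1, SERPINB8 and S100P did not pass on the TPM scales or on length-scaled counts. KRT17, a marker gene outside the list, rose to 69.3, 71.4 and 70.7 TPM with TGFβ at 48 h against 5.65, 5.87 and 4.71 TPM untreated (difference 3.76, adjusted p = 4e-17).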

How the data were processed

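RNA of SK-MES1 cells was sequenced on a HiSeq 4000 in 24 libraries, grouped by arm and time from the labels. The authors quantified reads with kallisto 0.43.0 against Ensembl release 79 transcripts of GRCh38. They deposited for each library and each of 173259 transcripts the estimated counts, which are not normalized, the effective length, and the TPM, which are scaled to a constant total. Replicates were not pooled.

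Transcripts were matched to GENCODE release 44 by identifier, which kept 155518 transcripts (89.8%) and from 94.82 to 95.18% of the counts of a library, and were summed per gene. The 17413 genes that reached 10 estimated counts in 3 or more libraries were rounded and tested with limma 3.58.1 (voom, TMM factors, 1 mean per group, all 24 libraries) in R 4.3.3. The F-test joined the differences at 8, 24 and 48 h, and its value is their average. Benjamini-Hochberg adjusted p below 0.01 over all tested genes was the threshold. Because the tables hold sums over transcripts, overlapping or near-identical genes may share reads.

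Alternatives were edgeR 4.0.16 (quasi-likelihood) and DESeq2 1.42.0 on the same counts, length-scaled counts, other scalings and filters, limma-trend with a pseudocount of 1 or 0.1 added to TPM before log2, a replicate block, fewer libraries in the fit, each library left out, and, chosen after seeing the data, protein-coding transcripts only. On simulated counts for 17167 genes, 200 genes with a mean above 1 CPM were given the same change at 8, 24 and 48 h. Of 100 changes of each size, limma recovered 100 of the 2-fold and 99 of the 4-fold ones and called 0 unchanged genes. Changes in scarcer genes and changes that differ between times were not simulated. No pair of replicates was a duplicate, since all 24 pairs differed beyond counting error (chi-square per gene from 3.17 to 60.48). The members and gene lists were chosen with earlier results of these data known. Full values are given for TP63, SOX2, KLF4, KLF5, IVL and members that passed with at least 2-fold average change, and other members by range or in brief. From each further list the 3 higher and 3 lower genes with the lowest p are named. Python 3.11.15 with pandas 2.3.3 and matplotlib 3.10.9 was used for tables and plots. The result of 1 gene of the pathway lists is not reported here.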

Additional observations from a re-analysis of the deposited data

Results flagged for a closer look

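For 5 of the 22 tested members the difference between the arms at 48 h differed from that at 24 h by the test of the change itself (limma, adjusted p below 0.01), against 9.14% of all genes (5.63% lower). The change was -1.51 for TP63, -1.17 for KLK10, -0.84 for ELF3, -0.52 for EHF and -0.37 for KLF4 on the log2 scale. For TP63 the arms also changed order, since TGFβ-treated cells were higher at 24 h and untreated cells at 48 h. Leaving out single libraries ended the call for EHF (adjusted p up to 0.032), KLK10 (up to 0.013) and KLF4 (up to 0.011), and the calls of TP63 and ELF3 passed without each library in turn.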

How the results depend on the processing

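Beside leaving out libraries, the counts past the threshold were recomputed 168 times over the comparisons and alternatives, and 163 stayed within 1.5 times the reported count. The exceptions were all genes in the F-test, of which 11185 passed with reference genes, and the members at 24 h. Of these members 20 could be tested and 7 passed when only the libraries of 24 h entered. The last exception was the members with a different change from 24 to 48 h. Of them 3 passed on log2(TPM + 0.1), on length-scaled counts and with only the libraries of those times. Leaving out each library in turn gave from 3 to 6 for that last count. The tally of 163 in 168 compares totals only and takes no account of shifts between higher and lower. Such a shift was seen with reference genes, as given above. The tally also includes the comparison at 0 h, where no member passed. By estimated counts in place of TPM, the upstream share of TP63 moved to 95% and 98.9% in untreated cells at 24 and 48 h and to 95.1%, 97% and 96.4% in the TGFβ arm at 0, 8 and 24 h. Averages reversed with reference genes for KLF5 (0.016), EHF (0.025), TGM1 (0.116), CSTB (0.071) and CNFN (0.21), on library totals for S100A2 (-0.006) and CSTA (-0.035), and on log2(TPM + 0.1) for CSTA (-0.004). CSTA ranged from -0.057 to 0.17 as libraries were left out, being negative without untreated replicate 3 of 24 h (-0.005) or 48 h (-0.021) and without TGFβ replicate 3 of 24 h (-0.043) or 48 h (-0.057). The cause was not tested.

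Whether the replicate numbers pair the libraries is not stated, and the main fit did not use them. The correlation of same-numbered deviations between the arms ranged from -0.048 to 0.307 and was over 0.1 in 4 of 12 pairs. It was 0.204, 0.299 and 0.069 at 0 h and 0.147, 0.307 and 0.095 at 24 h. At 8 h it was -0.011, -0.024 and -0.048, and at 48 h -0.014, 0.007 and 0.096. With a replicate block 15 members and 8092 genes passed the F-test, against 15 and 7412 without it. In that fit 13 members passed at 24 h and 14 at 48 h, and how many of all genes passed at these times was not counted. Low counts limit what can be said of the 18 members that could not be tested and of SERPINB3, KLK7 and S100A9.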
